A study of Mus musculus with 6 samples.

Results

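The B cell and plasma cell genes described here are 31 mouse genes, taken by symbol from the 34745 genes of the deposited expression table. The 27 B cell members are surface proteins, signalling proteins, transcription regulators and receptors for the survival factors BAFF and APRIL. The 4 plasma cell members are Jchain, Mzb1, Sdc1 and Tnfrsf17. Immunoglobulin genes were not members. All 31 were found in the table, and 30 had enough counts to be tested; Tnfrsf17 did not.

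The libraries were made from alveolar macrophages, the macrophages of the lung's air spaces, recovered by broncho-alveolar lavage (washing out the airways). There were 3 libraries from Phlpp1-deficient mice (KO) and 3 from wild-type mice (WT). All 6 came from mice given bleomycin, a drug that injures the lung, at 5 mg per kg and sampled at day 7. Phlpp1 encodes a phosphatase of the kinase Akt, and the comparison is between the genotypes after bleomycin. The labels give neither the allele behind the deficiency nor the age of the mice, and nothing in them ties a library to its own animal. Every p-value is thus set by the spread among 6 libraries, part of which may be technical. Saline-treated mice were not analysed here.

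B cells recognise antigen through a surface immunoglobulin that signals through the paired chains CD79A and CD79B. The regulators EBF1 and PAX5 set and hold B cell identity, and BAFF keeps mature B cells alive through its receptor. Plasma cells, their descendants, switch off most of these genes and secrete antibody. They need JCHAIN, which joins secreted IgM and IgA, and MZB1, which helps immunoglobulin fold in the endoplasmic reticulum. B cells are normally a small part of lavage cells, and several B cell genes are also used by macrophages. BTK, BLNK and CD37 are examples.

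The libraries held 13340861 to 15843764 counts each. The labelled cell type had its defining markers, since all 16 alveolar macrophage genes on a list were tested and summed to 14520 to 24600 CPM (counts scaled to library size) in WT and 13090 to 27700 CPM in KO libraries. Markers of other cells were present too. The 21 T cell genes summed to 2293 to 2835 CPM in WT and 2305 to 3506 CPM in KO libraries. Neutrophil genes, 11 of 12 tested, spanned 1198 to 10780 CPM in WT and 1392 to 7622 CPM in KO libraries. For erythroid genes, 6 of 9 tested, the ranges were 422 to 8209 CPM and 337 to 5051 CPM. These levels differed between libraries of 1 genotype, and none of the lists had a marker at 0 in all 6 libraries.

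The B cell members formed a common pattern over the libraries, in which KO library 1 stood above the other 5. It held the highest value of 25 of the 27 B cell members, against 15.6% of all tested genes. Among the WT libraries, WT library 1 was highest for 22 of the 27 (36.6% of all tested genes). Among the KO libraries, KO library 2 was lowest for 21 of the 27 (28.8% of all tested genes). The 27 genes summed to 1030, 772 and 697 CPM in WT libraries 1, 2 and 3 and to 2390, 936 and 1147 CPM in KO libraries 1, 2 and 3. As mean log2 CPM they stood at 4.78, 3.82 and 3.89 in WT and at 6.10, 4.42 and 4.90 in KO libraries. KO library 1 was therefore apart, while KO library 2 lay below WT library 1 on both scales. T cell genes had a similar order, with KO library 1 highest for 14 of 21, WT library 1 the highest WT library for 16 and KO library 2 the lowest KO library for 18. Their mean log2 CPM was highest in KO library 1, at 7.17, and their median log2 difference was 0.28. Alveolar macrophage genes had their lowest sum of all 6, 13090 CPM, in KO library 1. As mean log2 CPM they were lowest in WT library 2, at 6.88, with KO library 1 next at 7.00. The part of T cells or of macrophages in the B cell values was not tested. In bulk libraries such as these, fewer cells of a type and less RNA per cell cannot be told apart.

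**Figure D1:**
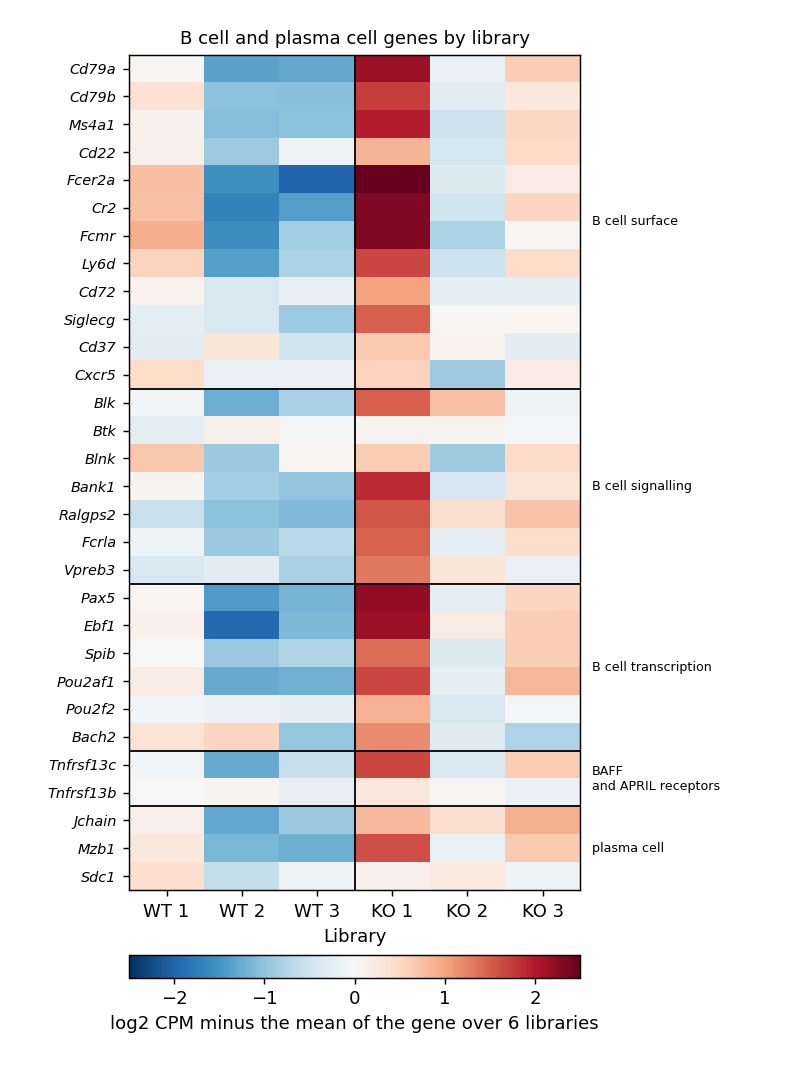
Colour gives log2 CPM of each tested member (rows, grouped by role) in each library (columns), as the difference from that gene's mean over 6 libraries. The column of KO library 1 is the darkest red for most B cell members, the columns of WT libraries 2 and 3 are the bluest, and the rows of Btk and Tnfrsf13b are nearly white.

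In the comparison of genotypes, 0 of the 30 tested members passed edgeR's quasi-likelihood test between the genotypes (adjusted p under 0.05 over 14037 genes), against 0.0997% of all tested genes. All 30 had a log2 difference above 0, where 45.7% of all tested genes did. An unadjusted p under 0.05 with KO higher was found for 14 of the 30, against 3.4% of all tested genes (6.96% with either group higher). Groups that did not overlap, with every KO library above every WT library, were found for 5 of the 30, against 4.57% of all tested genes (11.1% in either direction). These 5 were Ralgps2, Siglecg, Vpreb3, Ebf1 and Jchain. The median log2 difference, KO minus WT, was 1.23 over the 27 B cell members and 1.27 over the 3 tested plasma cell members, against -0.02 over all tested genes. DESeq2 called 1 member, Ralgps2, against 1.01% of the genes it tested, and limma-voom called 0 members.

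These figures rest to a large part on KO library 1. Without it the B cell median was 0.45, and 20 of 27 B cell members had a difference above 0, against 46.6% of all tested genes. The differences of the B cell members ran from -0.63 for Bach2 to 1.44 for Ralgps2. Fcmr, Cd72, Cxcr5, Blnk, Pou2f2 and Tnfrsf13b were the other members below 0 in that fit. The number with an unadjusted p under 0.05 moved from 12 to 2 of the 27 B cell members when KO library 1 was left out. Over all tested genes the share was 6.96% with all 6 libraries and 5.15% without KO library 1. The B cell number was also 2 without WT library 2 (8.49% of all tested genes) and 2 without WT library 3 (4.17%). It was 16 without WT library 1 (7.62%), 14 without KO library 2 (5.98%) and 10 without KO library 3 (8.56%). Without library 1 of both groups, an alternative chosen after seeing the data, it was 15 (6% of all tested genes).

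**Figure D2:**
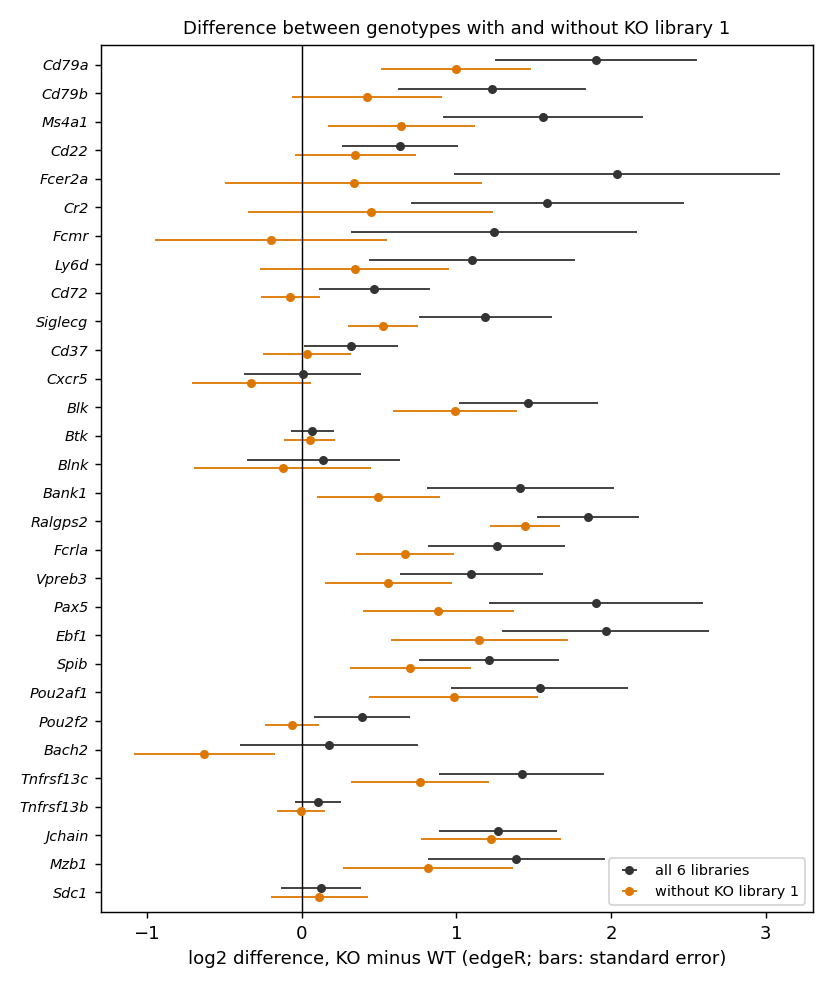
Points give the log2 difference, KO minus WT, of each tested member from edgeR with its standard error, for all 6 libraries and without KO library 1. Leaving out that library moves most B cell members toward 0, with Cd79a going from 1.90 to 0.9985, while Ralgps2 (1.85 and 1.44) and Jchain (1.27 and 1.22) move less.

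Among the surface members, the antigen receptor chains are described first. Cd79a (ENSMUSG00000003379, GRCm38 chromosome 7, 24897381 to 24902197, plus strand) had 64.7, 25.1 and 26.25 CPM in WT libraries 1, 2 and 3 and 280, 56.8 and 98.0 CPM in KO libraries 1, 2 and 3. WT library 1 lay above KO library 2, so the groups overlapped. Mean CPM was 38.7 ± 22.6 in WT and 145 ± 119 in KO libraries (SD, n = 3 each). KO exceeded WT by 1.90 on the log2 scale (SE 0.65, edgeR adjusted p = 0.57). Its partner Cd79b (chromosome 11, 106311341 to 106314762, minus strand) had 31.5, 12.05 and 11.9 CPM in WT and 80.8, 20.3 and 29.4 CPM in KO libraries. WT library 1 exceeded KO libraries 2 and 3. KO exceeded WT by 1.23 on the log2 scale (SE 0.61, edgeR adjusted p = 0.81).

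Within each library the ratio of Cd79a to Cd79b, in CPM, was 2.05, 2.08 and 2.20 in WT and 3.46, 2.79 and 3.33 in KO libraries. The groups did not overlap, and the means were 2.11 ± 0.0766 and 3.20 ± 0.356 (SD, n = 3 each; exact two-sided permutation p = 0.1, the smallest that 3 against 3 allows). This pair was looked at after its values were seen. Over all 351 pairs of B cell members, 24.2% had ratios whose groups did not overlap.

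The other surface members fell into a wide and a narrow kind. Ms4a1 encodes CD20, a membrane protein of B cells. It had 32.85, 14.4 and 14.96 CPM in WT and 119, 21.2 and 43.7 CPM in KO libraries (log2 difference 1.56, SE 0.64, edgeR adjusted p = 0.70). Fcer2a, which encodes the low-affinity IgE receptor CD23 of mature follicular B cells, had the widest spread of any tested member. It had 12.75, 2.61 and 1.90 CPM in WT and 57.1, 5.95 and 8.69 CPM in KO libraries. KO library 1 was 30.02 times the lowest library, and WT library 1 exceeded both other KO libraries. Cr2, the complement receptor CD21, and Fcmr, the IgM Fc receptor, were similarly wide, with KO library 1 at 16.2 and 14.85 times their lowest library. Ly6d, a surface protein of B cells, had 35.4, 9.29 and 13.9 CPM in WT and 76.4, 16.5 and 33.15 CPM in KO libraries. All 4 had WT library 1 above KO library 2.

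The inhibitory receptors of B cells were less spread. Siglecg, which dampens antigen receptor signals, had 24.7, 22.3 and 15.6 CPM in WT and 82.6, 29.8 and 30.4 CPM in KO libraries. Every KO library lay above every WT library, by 1.19 on the log2 scale in the fit (SE 0.43, edgeR adjusted p = 0.60). It was 0.53 (SE 0.23) without KO library 1. Cd22, another inhibitory receptor, had a mean of 62.2 ± 21.25 CPM in WT and 96.8 ± 39.25 CPM in KO libraries, and Cd72 had 31.6 ± 5.38 and 43.75 ± 23.8 CPM (SD, n = 3 each). Both overlapped between the groups. The tetraspanin Cd37 ranged from 131 to 228 CPM in WT and from 152 to 290 CPM in KO libraries. Cxcr5, the receptor that guides B cells to follicles, had 27.8, 17.8 and 17.98 CPM in WT and 30.1, 10.7 and 23.1 CPM in KO libraries. The genotypes differed by 0.01 on the log2 scale (SE 0.38), near 0, although KO library 1 was its highest library as well.

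**Figure D3:**
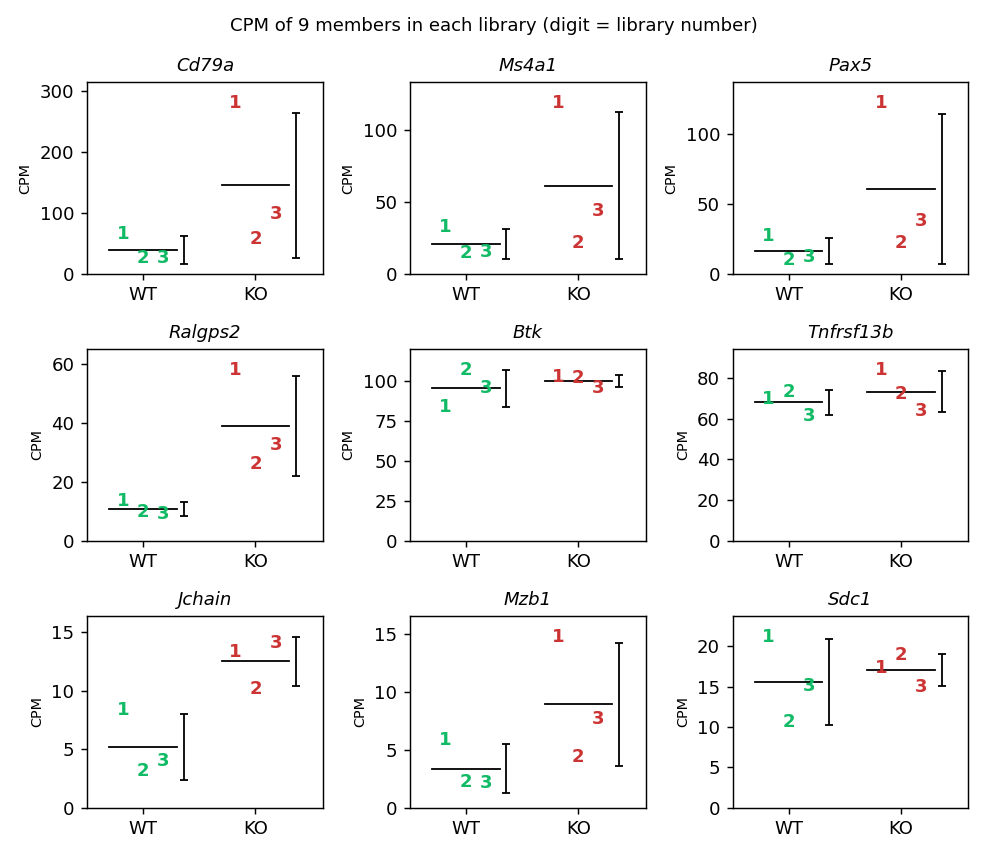
Each panel plots CPM of 1 gene against genotype, with digits marking the library number, a line at the mean and a bar of 1 SD (n = 3). KO library 1 is far above the rest for Cd79a, Ms4a1 and Pax5, the groups of Ralgps2 and Jchain do not overlap, and Btk, Tnfrsf13b and Sdc1 overlap.

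Among the signalling members, Ralgps2 had the smallest p. It encodes a guanine nucleotide exchange factor for Ral GTPases (ENSMUSG00000026594, chromosome 1, 156804166 to 156939626, minus strand). It had 13.5, 9.69 and 9.25 CPM in WT and 58.2, 26.3 and 32.6 CPM in KO libraries. The lowest KO library lay above the highest WT library. Mean CPM was 10.8 ± 2.32 in WT and 39.0 ± 16.9 in KO libraries (SD, n = 3 each). KO exceeded WT by 1.85 on the log2 scale (SE 0.33, edgeR adjusted p = 0.185). DESeq2 gave an adjusted p of 6.09e-05, and over the other alternatives the adjusted p lay between 0.0902 and 0.786, so only DESeq2 called it. Without KO library 1 the log2 difference was 1.44 (SE 0.23, edgeR adjusted p = 0.277). Genes annotated on the same strand and on the opposite strand overlap Ralgps2, and these reads cannot be told apart.

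Blk, a Src-family kinase of B cells, had 48.9, 22.0 and 29.3 CPM in WT and 144, 85.6 and 47.5 CPM in KO libraries. KO library 3, not KO library 2, was its lowest KO library, and it lay just below WT library 1. Bank1, a scaffold of B cell signalling, had 17.1, 9.04 and 8.14 CPM in WT and 59.2, 12.0 and 20.3 CPM in KO libraries. Fcrla, a protein related to Fc receptors that stays inside B cells, had 12.3 ± 3.67 and 29.6 ± 17.8 CPM (SD, n = 3 each). Vpreb3, which binds immunoglobulin chains during their assembly, was low, with 13 to 19 counts in WT and 18 to 52 counts in KO libraries. Its groups did not overlap, but the margin was small between KO library 3 (1.33 CPM) and WT library 2 (1.22 CPM).

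Btk and Blnk, signalling members that macrophages share, lacked the excess in KO library 1. Cd37, which macrophages also use, was highest in KO library 1, at 290 CPM, with WT library 2 next at 228 CPM. Btk, the kinase downstream of the antigen receptor, had 83.6, 106.9 and 95.9 CPM in WT and 102.4, 102.2 and 95.8 CPM in KO libraries (log2 difference 0.07, SE 0.14, edgeR adjusted p = 1). Blnk, the adaptor that links the kinase Syk to Btk, had 54.3, 17.8 and 34.9 CPM in WT and 52.5, 18.2 and 47.4 CPM in KO libraries. Within each genotype this was the order of most B cell members, but KO library 1 did not exceed WT library 1. The lowest libraries were WT library 2 and KO library 2. These also had the highest summed erythroid markers of their genotype, 8209 and 5051 CPM, and the highest neutrophil markers, 10780 and 7622 CPM. The part of those cells in the Blnk values was not tested. A list of 14 antigen receptor signalling genes that myeloid cells also use, such as Dok3, Ptpn6 and Vav1, had a median log2 difference of 0.05. Of these 14, 0 passed edgeR's test and 0 had an unadjusted p under 0.05, against 0.0997% and 6.96% of all tested genes.

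Among the transcription regulators, Pax5 and Ebf1 were the widest. Pax5 (ENSMUSG00000014030, chromosome 4, 44524757 to 44710487, minus strand) had 27.1, 9.77 and 11.75 CPM in WT and 122.3, 22.2 and 37.9 CPM in KO libraries. WT library 1 lay above KO library 2, and the log2 difference was 1.90 (SE 0.69, edgeR adjusted p = 0.61). Ebf1 had 8.78, 2.12 and 3.74 CPM in WT and 35.98, 9.40 and 12.45 CPM in KO libraries. The groups did not overlap, although WT library 1 and KO library 2 were close, and the log2 difference was 1.97 (SE 0.67, edgeR adjusted p = 0.57). Pou2af1, a coactivator of octamer-binding factors, had 40.1, 14.7 and 15.3 CPM in WT and 112, 29.8 and 62.8 CPM in KO libraries. Spib, an ETS factor of B cells and plasmacytoid dendritic cells, had 39.4, 20.6 and 23.4 CPM in WT and 103, 30.7 and 59.9 CPM in KO libraries. Pou2f2, the octamer-binding factor that POU2AF1 joins, had 36.9 ± 2.30 and 48.4 ± 22.9 CPM (SD, n = 3 each), with KO library 2 the lowest of all 6. Bach2, which holds back plasma cell differentiation, had 27.25, 30.95 and 10.96 CPM in WT and 48.3, 17.2 and 12.6 CPM in KO libraries. Its log2 difference was 0.18 (SE 0.58), and -0.63 (SE 0.46) without KO library 1.

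Because many members varied together over the libraries, the 250 bases before their starts were searched for 4 motifs on both strands. RefSeq promoters (build GRCm38.p6) were matched for 25 of the 31 members. The E-box CAGGTG, a sequence bound by the E2A proteins that act with EBF1 in B cells and also by ZEB and Snail factors, was found in 10 of the 30 promoter windows of these members (33.3%), each in a different gene, and in 17.2% of all 32851 promoters. The octamer ATGCAAAT was found in 2 (1.6% of all promoters), the EBF sequence (TCCC and GGGA with any 2 bases between them) in 1 (0.779%) and the ETS sequence GAGGAAGT in 2 (2.44%). These are matches of letters and not measured binding. All 10 carriers are from the surface, signalling and BAFF receptor groups. The 6 shown had log2 differences from 1.26 for Fcrla to 1.90 for Cd79a. They are given 5′ to 3′ on the strand of the gene, with the E-box or its reverse complement in capitals.
Cd79a (chr7:24897331-24897360, plus strand): ttgtggccagccCAGGTGcagggcagttcc
Cr2 (chr1:195176790-195176819, minus strand): tccgcccctagtCACCTGcagttgtgcttc
Bank1 (chr3:136326194-136326223, minus strand): taagctctaggtCACCTGagcttaaagata
Ralgps2 (chr1:156939839-156939868, minus strand): gccgcggggcccCACCTGtccgtcctgaac
Fcrla (chr1:170927635-170927664, minus strand): gagacttggccaCAGGTGtgtggaggcgag
Tnfrsf13c (chr15:82224459-82224488, minus strand): atgcaggaaccaCAGGTGaaagaggtctgg

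The other 4 carriers were Fcer2a, Cd22, Cd37 and Blnk, with log2 differences of 2.04, 0.64, 0.32 and 0.14. Carriers were thus not limited to members with wide values. The octamer was found before Vpreb3 and Blnk, shown with the octamer's reverse complement in capitals. Of this pair, Vpreb3 was highest in KO library 1 and Blnk in WT library 1.
Vpreb3 (chr10:75948244-75948273, plus strand): tcagtgggctgATTTGCATgctctattgtg
Blnk (chr19:40994333-40994362, minus strand): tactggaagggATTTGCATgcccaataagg

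The receptors for BAFF and APRIL differed from each other. Tnfrsf13c, the BAFF receptor of mature B cells, had 9.45, 4.15 and 6.63 CPM in WT and 31.5, 7.56 and 15.5 CPM in KO libraries (log2 difference 1.42, SE 0.53, edgeR adjusted p = 0.63). Tnfrsf13b, or TACI, had 69.7, 73.2 and 61.2 CPM in WT and 83.9, 71.9 and 63.7 CPM in KO libraries, differing by 0.11 on the log2 scale (SE 0.15, edgeR adjusted p = 1). Per length, TACI was also the more abundant, at 14.3 ± 1.13 FPKM in WT (fragments per kilobase, scaled to library size) against 1.85 ± 0.828 FPKM for the BAFF receptor (SD, n = 3 each). Their ligands did not pass the test. Tnfsf13, which encodes APRIL, had 23.6 ± 3.75 CPM in WT and 25.65 ± 8.685 CPM in KO libraries, and Tnfsf13b, which encodes BAFF, had 4.80 ± 2.52 and 4.62 ± 0.734 CPM (SD, n = 3 each). Of 9 listed B cell ligands 4 were tested, and 3 of these had a difference above 0, against 45.7% of all tested genes. The log2 differences of the 4 ligands ran from -0.05 to 2.84, and their lowest edgeR adjusted p was 0.557. Cd40lg had 7.64 ± 4.90 CPM in WT and 12.3 ± 5.63 CPM in KO libraries (SD, n = 3 each, log2 difference 0.68). Cxcl13, Il21, Il4, Il5 and Cxcl12 were too low to be tested.

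The plasma cell members did not move as 1 group. Jchain (ENSMUSG00000067149, chromosome 5, 88519809 to 88527891, minus strand) had 8.36, 3.10 and 4.003 CPM in WT and 13.3, 10.1 and 14.1 CPM in KO libraries. Every KO library lay above every WT library, and KO library 3, not KO library 1, was the highest. The log2 difference was 1.27 (SE 0.38, edgeR adjusted p = 0.51), and 1.22 (SE 0.45, edgeR adjusted p = 0.969) without KO library 1. Mzb1 had 5.84, 2.20 and 2.10 CPM in WT and 14.8, 4.33 and 7.66 CPM in KO libraries, the order of the B cell members, with WT library 1 above KO library 2. The genotypes differed by 1.39 on the log2 scale (SE 0.57, edgeR adjusted p = 0.70). Mzb1 lies on chromosome 18, 35647267 to 35649367, and a gene annotated on the same strand overlaps it.

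Sdc1 encodes syndecan-1, a surface proteoglycan of plasma cells and of epithelium. It had 21.2, 10.6 and 15.03 CPM in WT and 17.3, 18.9 and 14.96 CPM in KO libraries, and the groups overlapped (log2 difference 0.12, SE 0.26, edgeR adjusted p = 1). Lung epithelial genes, 13 of 13 tested and none at 0 in all libraries, summed to 385 to 513 CPM in WT and 540 to 1233 CPM in KO libraries. The part of epithelium in the Sdc1 values was not tested. Tnfrsf17, the APRIL receptor BCMA of plasma cells, had 0 counts in 5 libraries and 4 counts in KO library 3. A count of 0 allows up to 0.1805 CPM in WT library 1 and up to 0.244 CPM in WT library 2 (counting error only).

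Plasma cell and B cell members were also set against each other inside each library, as the mean log2 CPM of the 3 tested plasma cell members minus that of the 27 B cell members. In the order of library numbers, WT gave differences of -1.42, -1.71 and -1.51 and KO gave -2.17, -1.16 and -1.33. KO library 1 was the lowest of all 6, and both other KO libraries were above every WT library. The group means were -1.55 ± 0.147 in WT and -1.55 ± 0.544 in KO libraries (SD, n = 3 each), and they differed by -0.01. Without KO library 1 they differed by 0.30.

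Of 7 markers of plasmacytoid dendritic cells, which also use Spib and Ly6d, 0 passed edgeR's test, against 0.0997% of all tested genes. The median log2 difference of the 7 was 0.26. The defining marker Siglech had 5.78, 5.62 and 6.43 CPM in WT and 13.3, 8.08 and 29.5 CPM in KO libraries (edgeR adjusted p = 0.51). Ccr9 had 10.4, 7.25 and 8.79 CPM in WT and 27.4, 12.9 and 32.2 CPM in KO libraries (edgeR adjusted p = 0.40). Every KO library lay above every WT library for 3 of the 7, these 2 and Klk1, against 4.57% of all tested genes. KO library 3 was the highest for all 3, as for Jchain. Runx2 and Pacsin1, the most abundant of the list with Klk1, overlapped between the groups. The whole list, 7 of 7 tested and none at 0 in all libraries, summed to 155 to 162.5 CPM in WT and 165 to 239 CPM in KO libraries. Its part in the values of Spib, Ly6d and Jchain was not tested.

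**Figure D4:**
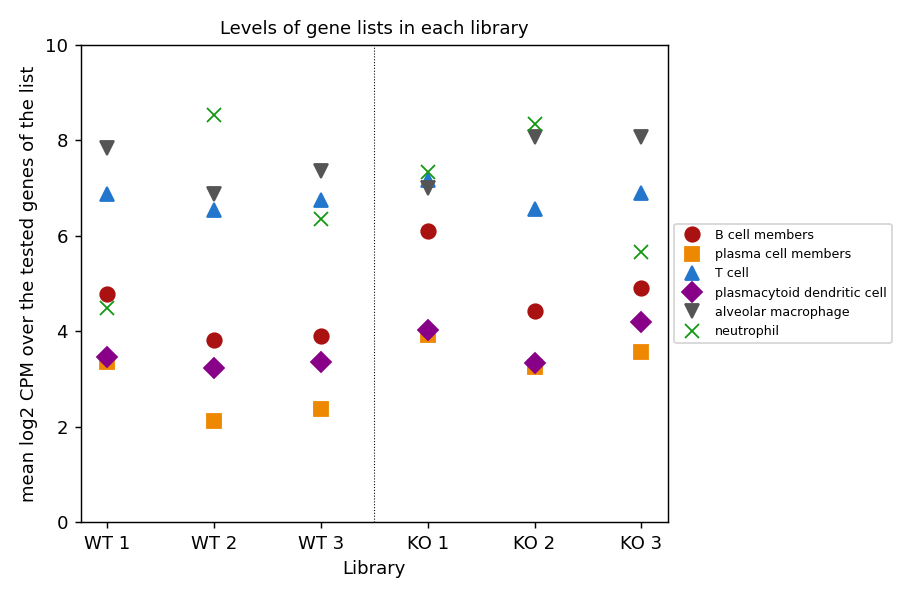
The y axis gives the mean log2 CPM over the tested genes of each list and the x axis the library, with 1 symbol per list. The B cell members range from 3.82 to 6.10 with KO library 1 highest, the plasma cell members from 2.11 to 3.92, and the T cell and plasmacytoid dendritic cell lists vary less than the neutrophil list.

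Per length, the order of the members also differed between the kinds. In WT libraries the highest mean levels were those of Cd79a (26.9 ± 17.1 FPKM), Ly6d (26.8 ± 20.35 FPKM), Cd37 (24.6 ± 5.63 FPKM) and Btk (23.7 ± 1.48 FPKM; SD, n = 3 each). These 4 did not differ beyond their spread. In KO libraries Cd79a was at 101 ± 84.6 FPKM and Ly6d at 57.4 ± 43.25 FPKM, while Cd37 was at 31.4 ± 10.9 and Btk at 25.2 ± 1.02 FPKM. The lowest tested B cell members in WT were Ebf1 and Cr2, at 0.426 and 0.427 FPKM, and Ralgps2 at 0.499 FPKM.

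Other genes of the pathway were read from fixed lists. Of all tested genes, 0.0997% passed edgeR's test and 45.7% had a difference above 0. Among 18 other B lineage genes 0 passed edgeR's test, 14 had a difference above 0 and the median was 0.33. The most abundant of them, Cd24a, Pik3ap1 and Fcgr2b, are also used by myeloid cells and had log2 differences of 0.35, -0.12 and 0.05. Among 8 germinal centre genes 5 were tested and 0 passed, 1 had a difference above 0, and the median was -0.53. These 5 did not have the order of the B cell members. KO library 1 was highest for 0 of them, and their mean log2 CPM was highest in WT library 2, at 5.81. The part of other cell types in their values was not tested. S1pr2, a receptor that holds B cells in germinal centres, had every KO library below every WT library, as had 917 of 14037 tested genes. It had 51.0 ± 4.80 CPM in WT and 27.7 ± 5.99 CPM in KO libraries (SD, n = 3 each, edgeR adjusted p = 0.301). Of 6 early B cell genes Dntt alone was tested with 1.06 ± 0.370 CPM in WT and 3.21 ± 1.01 CPM in KO libraries (SD, n = 3 in both groups, adjusted p = 0.425 by edgeR). Every KO library lay above every WT library for Dntt, against 4.57% of all tested genes. Among 15 genes of plasma cell differentiation and secretion 0 passed, 7 were above 0, and Xbp1, the regulator of secretory capacity, had 307 ± 75.95 and 359 ± 111 CPM (SD, n = 3 each). Of 12 immunoglobulin constant genes 11 were tested, 0 passed and 11 had a difference above 0. Their log2 differences ran from 0.73 to 2.99, and the lowest edgeR adjusted p was 0.0907. An unadjusted edgeR p under 0.05 was found for 5 of the 11, against 6.96% of all tested genes. The light chain gene Igkc had 91.0, 32.7 and 40.55 CPM in WT and 268, 64.3 and 123.5 CPM in KO libraries, the order of the B cell members.

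Of the 31 members, 17 overlap another annotated gene, and 14 overlap one on the opposite strand, so reads of these pairs may be shared. In a search of annotated transcripts, Cd79a, Ms4a1, Siglecg, Sdc1 and Bach2 resembled a gene elsewhere over 150 bases or more, at an identity of 95% or higher. The longest stretch was 418 bases, for Sdc1, and Cd79a and Siglecg had 298 and 382 bases. Their values are uncertain where reads could be split.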

How the data were processed

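Messenger RNA was sequenced in 6 libraries, 3 KO and 3 WT, grouped by the labels. StringTie 1.3.0, HISAT2, edgeR and the build mm10 are listed, without roles, in the submitters' processing notes. Strand setting and annotation are not given in the sources used here. Per the file headers, the table deposited by the authors holds read counts and FPKM values. The counts are whole and unscaled. The deposited FPKM values equal counts divided by library total and a gene length. IDs were named from GENCODE M21 (GRCm38), which matched 34344 of 34745.

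Counts were tested with edgeR 4.0.16 in R 4.3.3 (filterByExpr, TMM, glmQLFit with robust=TRUE, glmQLFTest), Benjamini-Hochberg adjusted over 14037 genes. CPM uses TMM-scaled totals, and mean log2 CPM uses a prior count of 2. SE was taken as the absolute log2 difference over the root of the F statistic. A ratio was compared with an exact permutation test, two-sided. The pipeline was tested on simulated data. No 2 libraries of a genotype agreed within sampling noise (chi-square per gene at least 34.4). Alternatives used DESeq2 1.42.0, limma 3.58.1, other scalings and filters, a replicate block, and libraries left out. All members were accounted for. Genes named from other lists came from their 3 of highest mean FPKM. Siglech and Ccr9 were named as defining markers; untested ligands were chosen after values were seen. Members and lists were chosen with earlier results of these data known.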

Additional observations from a re-analysis of the deposited data

How the results depend on the processing

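The number of genes called among all genes was 14. It was 172 with DESeq2, 23 with limma-voom, 36 without a filter on low counts, 24 with limma on log2(FPKM + 1), 26 on log2(FPKM + 0.1), 1 without library 1 of both groups (an alternative chosen after seeing the data), and 1 to 32 when single libraries were left out. It was 1 with the replicate number as a block. The block called 0 members. Under it 18 of the 27 B cell members had an unadjusted edgeR p under 0.05 (8.01% of all tested genes), against 12 (6.96%) without it. KO exceeded WT in all 3 same-numbered pairs for 19 of the 27 (12.6% of all tested genes). Same-numbered libraries did not all deviate together, with correlations across 14037 genes of -0.13, 0.33 and 0.29 for numbers 1, 2 and 3, so the numbers were not taken as pairs. Members called were 0 in all but DESeq2, which called 1. The B cell median of 1.23 lay between 0.45 and 1.74 with single libraries left out, the lowest being without KO library 1, and was 0.94 without library 1 of both groups. The plasma cell median of 1.27 lay between 0.82 and 1.81, and was 0.53 with limma on log2(FPKM + 1) without a filter, where Tnfrsf17 enters. The plasma minus B cell difference of -0.01 was too near 0 to have a stable sign. It ran from -0.2063 to 0.3016 with single libraries left out, and was 0.0137 on log2(FPKM + 0.1) and 0.3637 without library 1 of both groups.

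Among values of single members under the alternatives, 24 had the opposite sign and 485 kept their direction and side of the threshold. Cxcr5 was -0.0923 with limma-voom, -0.0704 with the replicate block, -0.0459 on log2(FPKM + 1) with and without a filter, -0.0656 on log2(FPKM + 0.1) and -0.3238 to 0.3277 with single libraries left out. Over the same fits Btk ran from -0.0196 to 0.1747, Blnk from -0.1574 to 0.5753, Sdc1 from -0.0726 to 0.4071, Bach2 from -0.6286 to 0.539, Fcmr from -0.1977 to 2.3004, Cd72 from -0.0738 to 0.7043, Pou2f2 from -0.0598 to 0.6279 and Tnfrsf13b from -0.004 to 0.2173. Without library 1 of both groups, Cd37 was -0.0371, Cxcr5 -0.0769, Btk -0.0336, Pou2f2 -0.0151 and Bach2 -0.49. The cause of these changes was not tested.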
